A study of Mus musculus with 93 samples.

Results

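Thyroid hormone reaches its target genes through a chain of proteins, and 4 genes of that chain were followed here in mouse granulosa cells and oocytes: Thra and Thrb, which encode the nuclear thyroid hormone receptors, Dio2, which encodes the deiodinase that makes the active hormone inside the cell, and Ncor1, which encodes a corepressor that receptors carrying no hormone recruit. The genes were taken by symbol from the count tables, which list 24047 symbols in all. The set was chosen by the Thrb counts of the 7 week granulosa libraries, where knockout exceeded wild type, so every value from that comparison is given below as a description, with no test. All 4 genes have a row in the oocyte tables and 3 have one in the granulosa tables; Dio2 was not analysed in granulosa cells.

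As background, the prohormone thyroxine enters cells through membrane transporters and is converted to triiodothyronine by Dio2, and Dio3 inactivates both. Thra and Thrb proteins bind DNA mostly as dimers with retinoid X receptors. Without hormone they hold corepressor complexes such as that of Ncor1, and with hormone they exchange these for coactivators. Granulosa cells surround the oocyte and make estradiol, and thyroid disorders are known to disturb ovarian cycles.

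The series holds 93 Smart-seq2 libraries, made with a full-length RNA sequencing method for small inputs; 42 hold granulosa cells and 51 hold oocytes, all from mouse ovary. The mice were wild type or knockouts of Esr2, the gene of estrogen receptor beta. Granulosa cells of 4 week old mice gave 7 wild type and 7 knockout libraries, those of 7 week old mice gave 5 of each, and those of 6 month old mice gave 12 wild type and 6 knockout libraries. For oocytes the 4 week group had 12 wild type and 7 knockout libraries, the 7 week group had 5 wild type and 12 knockout, and the 6 month group had 11 wild type and 4 knockout. Strain, sex steroid or gonadotropin treatment and the kind of knockout allele are not given in the sources used here, and nothing says which libraries came from separate animals, so p-values measure the spread between libraries, which may be technical. Levels are counts scaled to 1000000 per library (CPM), and totals ran from 702726 to 7751953 counts.

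The labels were checked on Esr2 itself. Its counts summed to 0 in each of the 3 granulosa knockout groups, against means of 30.3, 25.7 and 11.5 CPM in wild type at 4 weeks, 7 weeks and 6 months. In oocytes the knockout groups held 1, 4 and 0 counts, against wild type means of 88.0, 69.8 and 73.2 CPM. Markers of granulosa cells summed to between 2034 and 7373 CPM in granulosa libraries and 43.9 to 392 CPM in oocyte libraries. Oocyte markers summed to between 10278 and 39001 CPM in oocyte libraries and 1.42 to 666 CPM in granulosa libraries.

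On the mm10 genome (GENCODE M21), Thrb spans 377830 bases of chromosome 14, from 17660261 to 18038090 on the plus strand, and shares no exon base with another gene. Thra lies on chromosome 11 from 98740638 to 98769006 on the plus strand, and its last exons share 263 bases with Nr1d1, a circadian repressor gene on the opposite strand. Reads there cannot be told apart without strand, so Nr1d1 is given beside Thra. Ncor1 lies on chromosome 11 from 62316426 to 62458541 on the minus strand and shares 82 exon bases with Pigl. Dio2 lies on chromosome 12 from 90724552 to 90738438 on the minus strand, 14.5 Mb from Esr2, and shares 100 exon bases with Gm26512. The transcripts of Thra and Thrb have no stretch of 31 bases in common (0 shared), so their counts are separable.

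The upstream sequence of Thrb is shown because Thrb carries the main difference and its long gene has more than 1 start. RefSeq (GRCm38.p6) gives a pair of Thrb starts. Both lie inside the longer GENCODE span of the gene given above, and each stretch below stops before the first base of its window that falls in a GENCODE exon of Thrb. Capitals mark AGGTCA, the half-site that nuclear hormone receptors of several families bind, searched on both strands.
Thrb, first start, chr14:17660710-17660891, plus strand: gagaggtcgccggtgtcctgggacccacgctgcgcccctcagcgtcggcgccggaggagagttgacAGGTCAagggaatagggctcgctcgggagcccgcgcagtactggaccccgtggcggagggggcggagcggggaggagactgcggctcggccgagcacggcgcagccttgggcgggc
Thrb, second start, chr14:17981394-17981528, plus strand: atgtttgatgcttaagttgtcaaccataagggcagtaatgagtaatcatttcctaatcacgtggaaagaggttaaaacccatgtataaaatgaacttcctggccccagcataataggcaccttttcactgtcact

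The first stretch holds 1 half-site, whose first base lies 184 bases before the start, and the second holds none. AGGTCA occurs in 14.02% of 32851 mouse promoter windows of 250 bases, so a match is common. The full estrogen response element, GGTCA and TGACC with 3 bases between them, occurs in 0.0639% of them, the thyroid hormone element, AGGTCA repeated in the same direction after 4 bases, in 0.0152% and the AP-1 site TGANTCA in 6.75%. None of these other 3 motifs was matched in the windows of Thrb, Dio2 or Ncor1, the 3 members with an entry.

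Thrb was low in wild type granulosa cells at every age and several fold higher in knockout granulosa cells at 4 weeks. The 7 wild type libraries at 4 weeks ran from 0 through a median of 4.24 to 10.0 CPM, and the 7 knockout libraries from 21.1 through 28.0 to 31.3 CPM. Every knockout library lay above every wild type library. The means were 4.87 ± 3.37 CPM (SD, n = 7) and 26.8 ± 3.39 CPM (SD, n = 7). The log2 fold change was 2.38 ± 0.42 (SE), a 5.20-fold rise, with an adjusted p of 0.00207 by the quasi-likelihood test of edgeR, with Benjamini-Hochberg correction across the 12161 genes tested. Among all genes tested in that comparison, 0.979% were called higher.

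**Figure D1:**
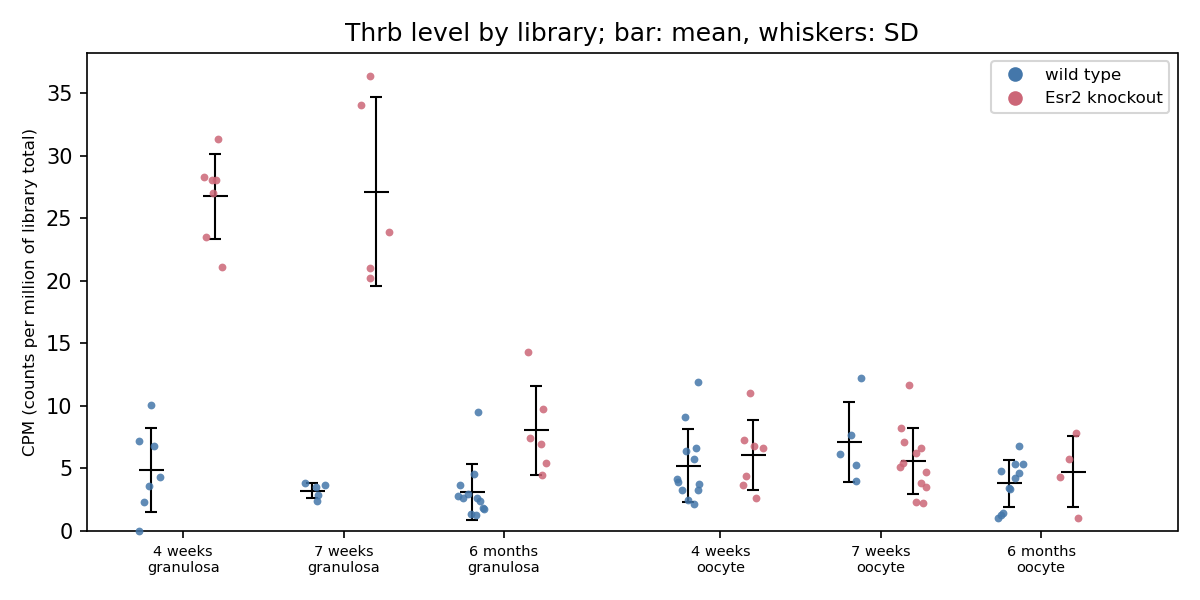
Thrb level in each library (points, CPM on the vertical axis) for the 12 groups along the horizontal axis, with the mean (bar) and SD (whiskers). Knockout granulosa libraries at 4 weeks sit between 21.1 and 31.3 CPM, above all wild type ones, while the oocyte groups overlap.

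The genotypes also differed in mean marker sums at this age. Immune markers summed to a mean of 1053 CPM in wild type and 397 CPM in knockout libraries at 4 weeks (ranges 385 to 1919 and 225 to 588 CPM). Granulosa markers summed to 3592 and 6004 CPM, and markers of red blood cells to 292 and 18.8 CPM. With the immune marker level as a covariate Thrb was 2.07 higher on the log2 scale and no longer passed (edgeR adjusted p = 0.104). Thrb was still called with the granulosa marker level, the oocyte marker level or the length tilt as a covariate. Red blood cell markers were not entered as a covariate. In bulk samples fewer cells of a type and less RNA per cell cannot be told apart. The part of these markers in the Thrb difference was not tested beyond these fits. The wild type library highest in oocyte markers, replicate 6, summed to 666 CPM, and wild type replicate 5 had no Thrb count. Thrb was called in the fit without both (log2 2.08), and also in each of the 14 fits that left out 1 library, with log2 fold changes from 2.15 to 2.60.

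At 6 months Thrb was again higher in knockout granulosa cells, by a smaller amount. The 12 wild type libraries ran from 1.21 through 2.62 to 9.52 CPM, and the 6 knockout libraries from 4.48 through 7.18 to 14.3 CPM. All 6 knockout libraries lay above the wild type median, and 2 of 6 lay above every wild type library. The means were 3.08 ± 2.24 CPM (SD, n = 12) and 8.04 ± 3.56 CPM (SD, n = 6). The log2 fold change was 1.45 ± 0.37 (SE), with an edgeR adjusted p of 0.0146 where 6.59% of 12505 genes were called higher. Markers of other cell types also differed in mean between these genotypes: those of theca and stroma summed to 18.7 CPM in wild type and 89.8 CPM in knockout libraries, immune markers to 1273 and 541 CPM, and red blood cell markers to 364 and 56.5 CPM, with overlapping ranges in each list. Thrb was still called with the immune marker level as a covariate (log2 1.62, edgeR adjusted p = 0.0161), and the part of theca and red blood cell markers was not tested. The call was lost when the oocyte marker sum, which was 12.0 CPM in wild type and 22.4 CPM in knockout libraries, entered as a covariate (log2 1.28, edgeR adjusted p = 0.166). It was also lost in the fits restricted to the libraries whose numbers occur in both groups, with the number as a block (log2 1.43, edgeR adjusted p = 0.0835) and without it (log2 1.21, edgeR adjusted p = 0.0962).

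The 7 week granulosa libraries chose the gene, and their values are a description. Wild type libraries read 2.85, 3.62, 3.77, 3.45 and 2.33 CPM. Knockout libraries read 36.4, 34.0, 23.9, 20.2 and 21.1 CPM. No library of either genotype reached into the other's range, and the fitted log2 difference was 2.94 ± 0.34 (SE). In that comparison 0.8% of 12002 genes were called in either direction, from which nothing is read. The tilt of each library towards long genes, taken as Spearman's rank correlation, across genes of the library, between exon length and the deviation from the gene's mean log2 level, reached -0.00665 at most in the wild type libraries of 7 weeks (lowest -0.351) and was at least 0.0138 in the knockout ones (highest 0.282), so it separated the genotypes there. At 4 weeks and at 6 months the tilts of the genotypes overlapped.

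Thrb was lower at 6 months than at 4 weeks in knockout granulosa cells. Between 4 weeks and 6 months the log2 change was -1.52 ± 0.39 (SE) in knockout cells (edgeR adjusted p = 0.00688), where 7.19% of 14307 genes were called lower. In wild type cells it was -0.58 ± 0.34 (SE), which did not pass (edgeR adjusted p = 0.307). The knockout effect itself was 0.93 smaller at 6 months than at 4 weeks on the log2 scale (-0.93 ± 0.52, SE), and this difference did not pass the test (edgeR adjusted p = 0.563). Each age was a separate set of libraries with its own count table. Here and below, age cannot be told apart from other differences between these sets. In knockout libraries granulosa markers summed to 6004 CPM at 4 weeks and 3934 CPM at 6 months. Markers of theca and stroma summed to 23.2 and 89.8 CPM. The part of these markers in the age changes was not tested.

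In oocytes Thrb was read at a low level in both genotypes. At 4 weeks the 12 wild type libraries ran from 2.15 through 3.99 to 11.8 CPM and the 7 knockout libraries from 2.57 through 6.61 to 11.0 CPM. At 7 weeks the 5 wild type libraries read 3.95, 5.23, 7.68, 12.2 and 6.14 CPM and the 12 knockout libraries ran from 2.20 through 5.23 to 11.6 CPM. At 6 months the 11 wild type libraries ran from 0.976 through 4.19 to 6.78 CPM and the 4 knockout libraries read 4.30, 1.03, 5.73 and 7.77 CPM. The genotypes overlapped at each age. Their log2 differences were 0.18 ± 0.35, -0.20 ± 0.37 and 0.39 ± 0.51 (SE) in order of age, and none passed the edgeR test.

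Set in order of mean CPM, Thrb was highest in knockout granulosa cells at 7 weeks (27.1 CPM) and 4 weeks (26.8 CPM), whose ranges overlapped. A gap with no overlap separated these groups from the next, knockout granulosa cells at 6 months (8.04 CPM). Below it each group overlapped its neighbour, down to wild type granulosa cells at 7 weeks (3.20 CPM) and 6 months (3.08 CPM). Between cell types, Thrb in knockout mice at 4 weeks was higher in granulosa cells than in oocytes by 1.64 ± 0.40 (log2, SE; edgeR adjusted p = 1.33e-04), where 43% of 11647 genes were called higher. In wild type mice at 6 months it was lower in granulosa cells by a log2 difference of -0.69 ± 0.32 (SE; edgeR adjusted p = 0.0439), where 38.6% of genes were called lower. The latter call was lost under the other scaling (RLE, adjusted p = 0.0972), and the median gene shifted by 0.25 under TMM and 0.38 under RLE in that contrast, so these values are relative to the scaling.

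**Figure D2:**
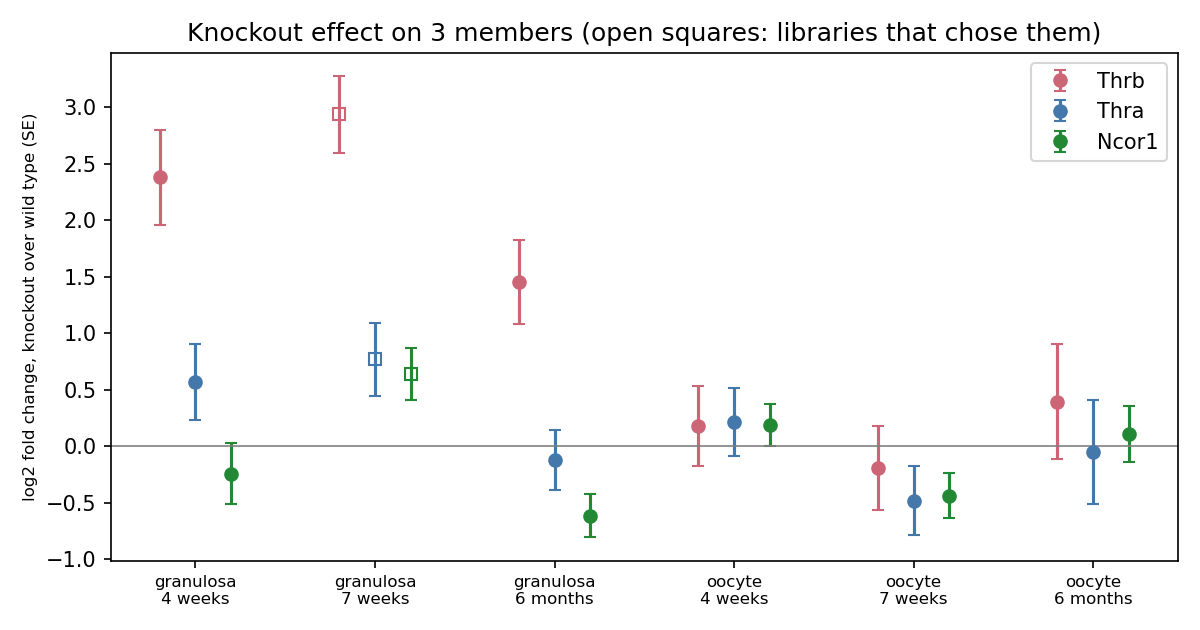
Fitted log2 fold change of knockout over wild type (vertical axis, with SE) for Thrb, Thra and Ncor1 in each cell type and age (horizontal axis); open squares mark the 7 week granulosa libraries that chose the genes. Thrb lies at 2.38 and 1.45 in granulosa cells at 4 weeks and 6 months, and within 0.39 of 0 in oocytes.

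Thra, the other receptor gene, did not pass the test between genotypes in any of the 5 comparisons tested. In granulosa cells at 4 weeks the wild type libraries ran from 11.5 through 39.7 to 97.6 CPM and the knockout libraries from 41.2 through 78.1 to 98.7 CPM. The ranges overlapped widely, with a log2 difference of 0.57 ± 0.34 (SE; edgeR adjusted p = 0.664). At 6 months wild type libraries ran from 11.7 through 25.9 to 49.4 CPM and knockout libraries from 14.4 through 23.2 to 40.3 CPM, a log2 difference of -0.12 ± 0.26 (SE; edgeR adjusted p = 0.774). In oocytes the group means lay between 17.5 and 49.0 CPM, and the log2 differences were 0.21 ± 0.30, -0.48 ± 0.30 and -0.05 ± 0.46 (SE) at 4 weeks, 7 weeks and 6 months. At 7 weeks, as a description, wild type granulosa libraries read 29.9, 21.6, 52.9, 41.4 and 47.1 CPM and knockout ones 68.0, 30.5, 101, 51.3 and 96.1 CPM.

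Thra was also lower at 6 months than at 4 weeks in knockout granulosa cells. It fell by 1.30 on the log2 scale between 4 weeks and 6 months in knockout cells (SE 0.33, edgeR adjusted p = 0.00745), and the change of -0.58 ± 0.27 (SE) in wild type cells did not pass (edgeR adjusted p = 0.187). The test of the difference between those changes did not pass (edgeR adjusted p = 0.596). In wild type oocytes Thra fell by 1.15 between 7 weeks and 6 months (SE 0.37, edgeR adjusted p = 0.0168), where 12.6% of genes were called lower. The Thra change in knockout oocytes, -0.73 ± 0.43 (log2, SE), did not pass (edgeR adjusted p = 0.307). The difference between the genotypes in that change, 0.42 ± 0.56 (log2, SE), did not pass the edgeR test. Nr1d1, which shares 263 exon bases with Thra, had group means of 14.3 to 71.9 CPM in granulosa cells and 44.5 to 54.1 CPM in oocytes. In wild type granulosa cells Nr1d1 fell by 1.72 between 4 weeks and 6 months (SE 0.52, edgeR adjusted p = 0.0335; 4.82% of genes were called lower), and its genotype differences did not pass the test. At 6 months its log2 difference in granulosa cells was 0.91 ± 0.37 (SE; edgeR adjusted p = 0.0961); it passed without wild type replicate 7 (log2 1.15, edgeR adjusted p = 0.0262) and in the libraries whose numbers both genotypes share (log2 1.42, edgeR adjusted p = 0.0306).

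Because Thra and Thrb differ in length, their levels were compared per kilobase of exon. This length took in all GENCODE exons of the gene, 4614 bases for Thra and 7403 for Thrb. Single transcripts were not told apart. Thra exceeded Thrb in each of the 12 group means. In wild type granulosa cells Thrb made up 5.82% ± 3.31 (SD, n = 7) of the receptor CPM per kilobase at 4 weeks and 6.36% ± 3.23 (SD, n = 12) at 6 months. In knockout granulosa cells its share was 20.0% ± 6.48 (SD, n = 7) and 17.3% ± 6.31 (SD, n = 6). At 4 weeks the genotypes did not overlap in this share, with a highest wild type value of 9.66% and a lowest knockout value of 14.4%. At 6 months they overlapped, with wild type shares up to 11.6% and knockout shares from 9.70%. In oocytes the mean share lay between 8.59% and 13.8% in all 6 groups.

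**Figure D3:**
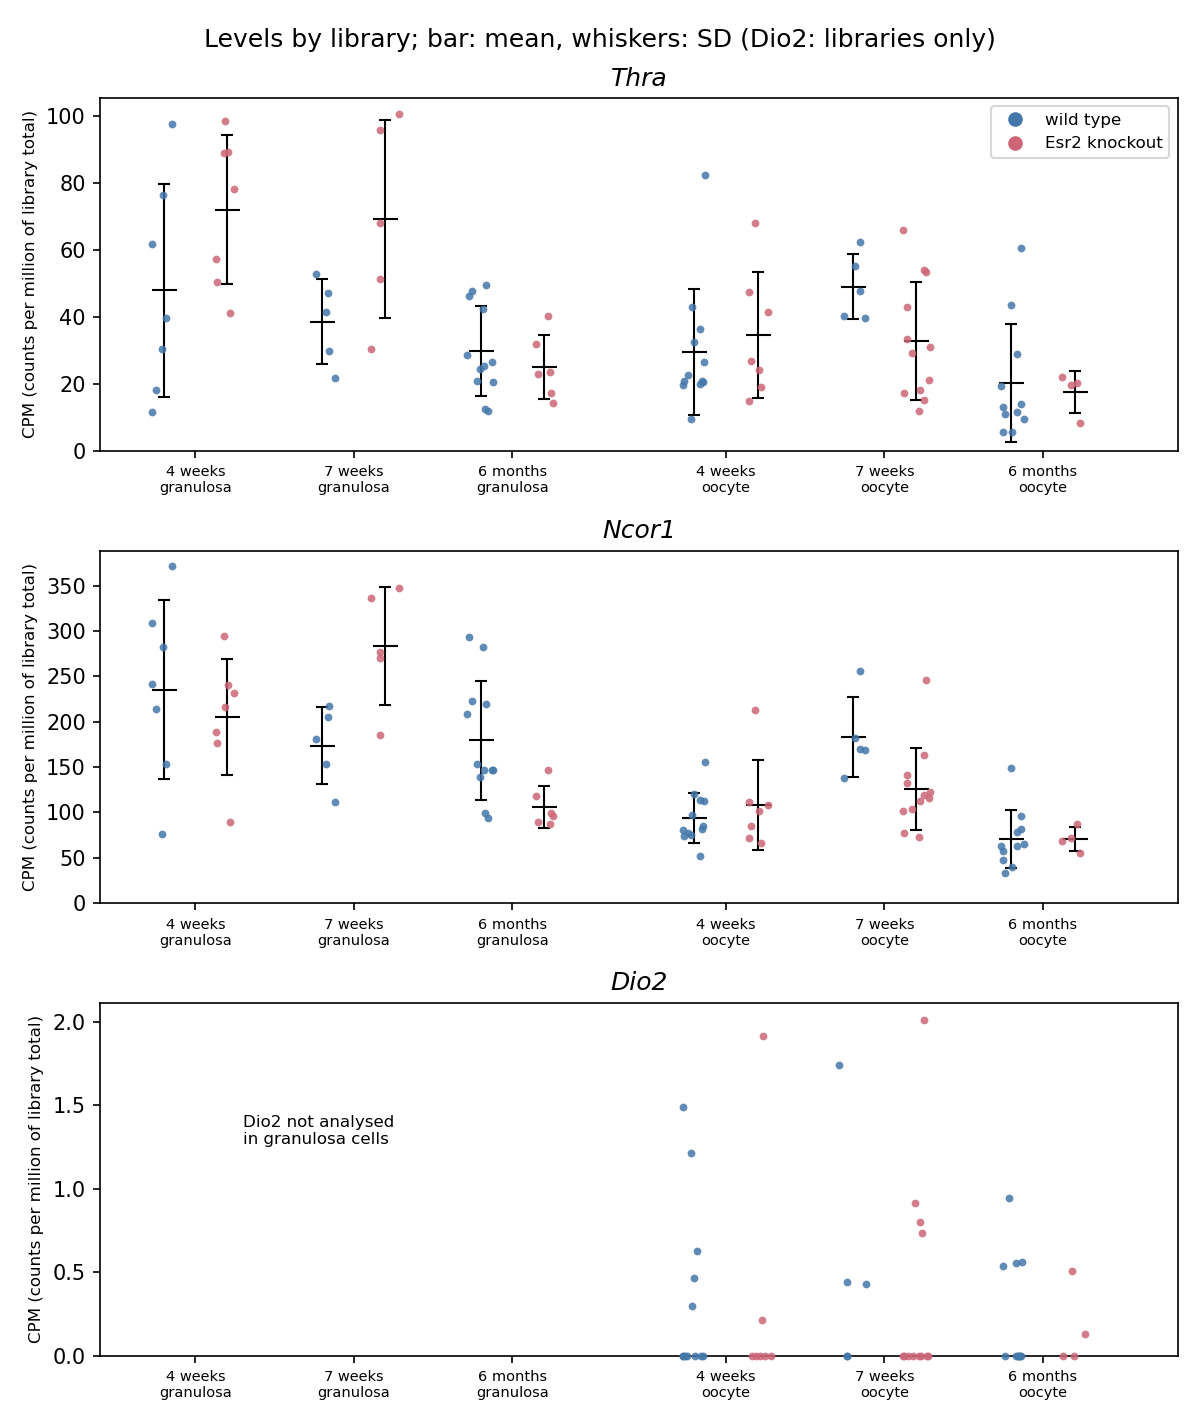
Levels of Thra, Ncor1 and Dio2 in each library (points, CPM on the vertical axes) over the groups on the horizontal axis, with mean and SD for Thra and Ncor1. Genotypes overlap in every panel, and Dio2 reads 0 in most oocyte libraries.

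Ncor1, the corepressor gene, was lower in knockout granulosa cells at 6 months. The 12 wild type libraries ran from 93.6 through 150 to 294 CPM and the 6 knockout libraries from 86.7 through 97.5 to 147 CPM. Each of the 6 knockout values was under the median of wild type, while the ranges overlapped. The log2 difference was -0.62 ± 0.19 (SE; edgeR adjusted p = 0.0359), where 6.05% of genes were called lower. The call was lost with the length tilt as a covariate (log2 -0.19, edgeR adjusted p = 0.519), under limma voom (adjusted p = 0.0595), and in 9 of 18 fits that left out 1 library: knockout replicates 1, 2, 3, 4 and 5 and wild type replicates 2, 5, 8 and 11, with adjusted p up to 0.0806. Length tilt there spanned -0.359 to 0.375 (median 0.0429) among wild type libraries and -0.365 to 0.0967 (median -0.187) among knockout ones.

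At 4 weeks wild type granulosa libraries ran from 76.4 through 241 to 372 CPM of Ncor1 and knockout ones from 89.4 through 216 to 295 CPM, with a log2 difference of -0.25 ± 0.27 (SE; edgeR adjusted p = 0.908). The 7 week values, as a description, were 218, 112, 181, 153 and 205 CPM in wild type and 277, 337, 347, 185 and 270 CPM in knockout granulosa cells, a fitted log2 difference of 0.64. With the length tilt as a covariate that difference was 0.0021. In oocytes no Ncor1 genotype difference passed the edgeR test, with log2 values of 0.18 ± 0.19, -0.44 ± 0.20 and 0.11 ± 0.25 (SE) at 4 weeks, 7 weeks and 6 months.

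Ncor1 also differed in some contrasts between ages and between cell types. In wild type oocytes it rose by 0.79 ± 0.21 (log2, SE) from 4 to 7 weeks (edgeR adjusted p = 0.0460), where 0.245% of 13471 genes were called higher. It then fell by 1.19 (SE 0.21) to 6 months (edgeR adjusted p = 3.98e-05). In knockout oocytes the change from 4 to 7 weeks, 0.18 ± 0.19 (log2, SE), did not pass (edgeR adjusted p = 0.887). The difference between the genotypes in that rise, -0.61 ± 0.28 (log2, SE), did not pass either (edgeR adjusted p = 0.408). The fall from 7 weeks to 6 months in knockout oocytes, -0.66 ± 0.24 (log2, SE), did not pass (edgeR adjusted p = 0.0840), and the difference between the genotypes in that change did not pass (edgeR adjusted p = 1.00). In knockout granulosa cells Ncor1 fell by 0.71 (SE 0.24) from 4 weeks to 6 months (edgeR adjusted p = 0.0397). The change in wild type granulosa cells, -0.32 ± 0.20 (log2, SE), did not pass (edgeR adjusted p = 0.352). The difference between the genotypes in that change, -0.40 ± 0.31 (log2, SE), did not pass either (edgeR adjusted p = 0.694). Wild type granulosa cells held more Ncor1 than oocytes, by 0.77 ± 0.19 (log2, SE) at 4 weeks and 0.89 ± 0.17 at 6 months (edgeR adjusted p = 1.78e-04 and 2.61e-06), where 43.6% and 45% of genes were called higher. In knockout mice the differences of 0.40 ± 0.22 and 0.10 ± 0.27 (log2, SE) did not pass (edgeR adjusted p = 0.0823 and 0.743). Under RLE factors the 4 week knockout difference did pass (log2 0.62, edgeR adjusted p = 0.0050). Whether the cell type difference itself differed between genotypes was not tested. The median gene shifted by 0.24 and 0.25 in the wild type contrasts under TMM and by 0.50 and 0.38 under RLE. These values are therefore relative to the scaling. Length tilt was not entered in any age or cell type contrast.

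Dio2, the activating deiodinase, was close to the limit of detection in oocytes and was tested by permutation. Counts were found in 5 of 12 wild type and 2 of 7 knockout libraries at 4 weeks, 3 of 5 and 4 of 12 at 7 weeks, and 4 of 11 and 2 of 4 at 6 months. Pooled over libraries, wild type oocytes gave 0.401 CPM at 4 weeks, 0.472 CPM at 7 weeks and 0.259 CPM at 6 months. The exact Poisson 95% intervals of these were 0.248 to 0.612, 0.226 to 0.868 and 0.148 to 0.421 CPM, and cover counting error only. Knockout oocytes gave 0.315 CPM (0.157 to 0.564), 0.349 CPM (0.210 to 0.545) and 0.171 CPM (0.0466 to 0.438), and every pair of intervals overlapped. Mean log2(CPM + 1) differed by -0.08, -0.15 and -0.07 between knockout and wild type, with exact two-sided permutation p of 0.764, 0.576 and 0.853 over 50388, 6188 and 1365 splits, and 0.853 after adjustment over the 3 tests.

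The rest of the pathway was read from 6 lists of 38 genes in all: receptors and their partners, deiodinases and their turnover, transporters, corepressors, coactivators and hormone target genes. Apart from the members, 26 listed genes were tested in granulosa cells. At 4 weeks 1 of 26 passed the edgeR test: Slc7a8, a thyroid hormone and amino acid transporter, was 0.85 lower in knockout on the log2 scale (-0.85 ± 0.21, SE; edgeR adjusted p = 0.0268), where 1.35% of genes were called lower. Its wild type libraries ran from 215 through 326 to 445 CPM and its knockout libraries from 141 through 185 to 261 CPM. The call was lost in 5 of 14 fits that left out 1 library: knockout replicates 2, 4, 5 and 6 and wild type replicate 4. It was also lost with the immune marker level as a covariate (log2 -0.99, edgeR adjusted p = 0.106) and with no filter on low counts (log2 -0.82, edgeR adjusted p = 0.0568). The median over the 26 was -0.06, against -0.02 over all genes tested.

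At 6 months 1 of 26 was higher and 4 were lower, while 6.59% and 6.05% of all genes were. Me1, malic enzyme and a known hormone target, was higher by 0.57 ± 0.15 (log2, SE; edgeR adjusted p = 0.0164), at 477 CPM in the median wild type library and 659 CPM in the median knockout library. Slc16a10, a transporter of thyroid hormone and aromatic amino acids, was lower by 0.99 (log2 -0.99 ± 0.26, SE; edgeR adjusted p = 0.0164), at 27.5 and 15.2 CPM. Tbl1xr1, a subunit of the Ncor1 complex, was lower by 0.93 (log2 -0.93 ± 0.23, SE; edgeR adjusted p = 0.0126), at 56.5 and 26.4 CPM. Cpt1a, the mitochondrial fatty acid transporter enzyme and another hormone target, was lower by 0.77 (log2 -0.77 ± 0.16, SE; edgeR adjusted p = 0.00414), at 312 and 169 CPM. Usp33, which acts on Dio2 protein, was also lower (log2 -0.66 ± 0.22, SE; edgeR adjusted p = 0.0453); it falls outside the naming rule, was chosen after its values were seen and was not run under the alternatives. The call of Me1 was lost with the oocyte marker sum as a covariate (log2 0.24), with scaling by library totals (log2 0.42) and without knockout replicate 5 (log2 0.44). The call of Tbl1xr1 was lost with the length tilt as a covariate (log2 -0.39, edgeR adjusted p = 0.181), as was that of Slc16a10 (log2 -0.52, edgeR adjusted p = 0.182). Tbl1xr1 also missed the threshold with granulosa markers as a covariate (edgeR adjusted p = 0.0614), and Slc16a10 did so with oocyte markers (edgeR adjusted p = 0.0623) and in the libraries with shared numbers (edgeR adjusted p = 0.0579).

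Klf9, a direct target that thyroid hormone induces in many tissues, did not pass the test in granulosa cells, with log2 differences of 0.56 ± 0.32 (SE) at 4 weeks and -0.03 ± 0.29 (SE) at 6 months. Rxra and Rxrb, the dimer partners, did not pass either. Dio1 had 45 and 4 pooled counts in wild type and knockout granulosa cells at 7 weeks and 14 and 14 at 6 months, too few for the test. In oocytes 0 of 22, 0 of 24 and 0 of 22 listed genes passed the edgeR test between genotypes at 4 weeks, 7 weeks and 6 months. At an unadjusted p under 0.05 the counts were 2, 3 and 2, and DESeq2 and limma voom each called 0. Among all genes in those comparisons 0.00924%, 0.154% and 0.00818% were called by edgeR.

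**Figure D4:**
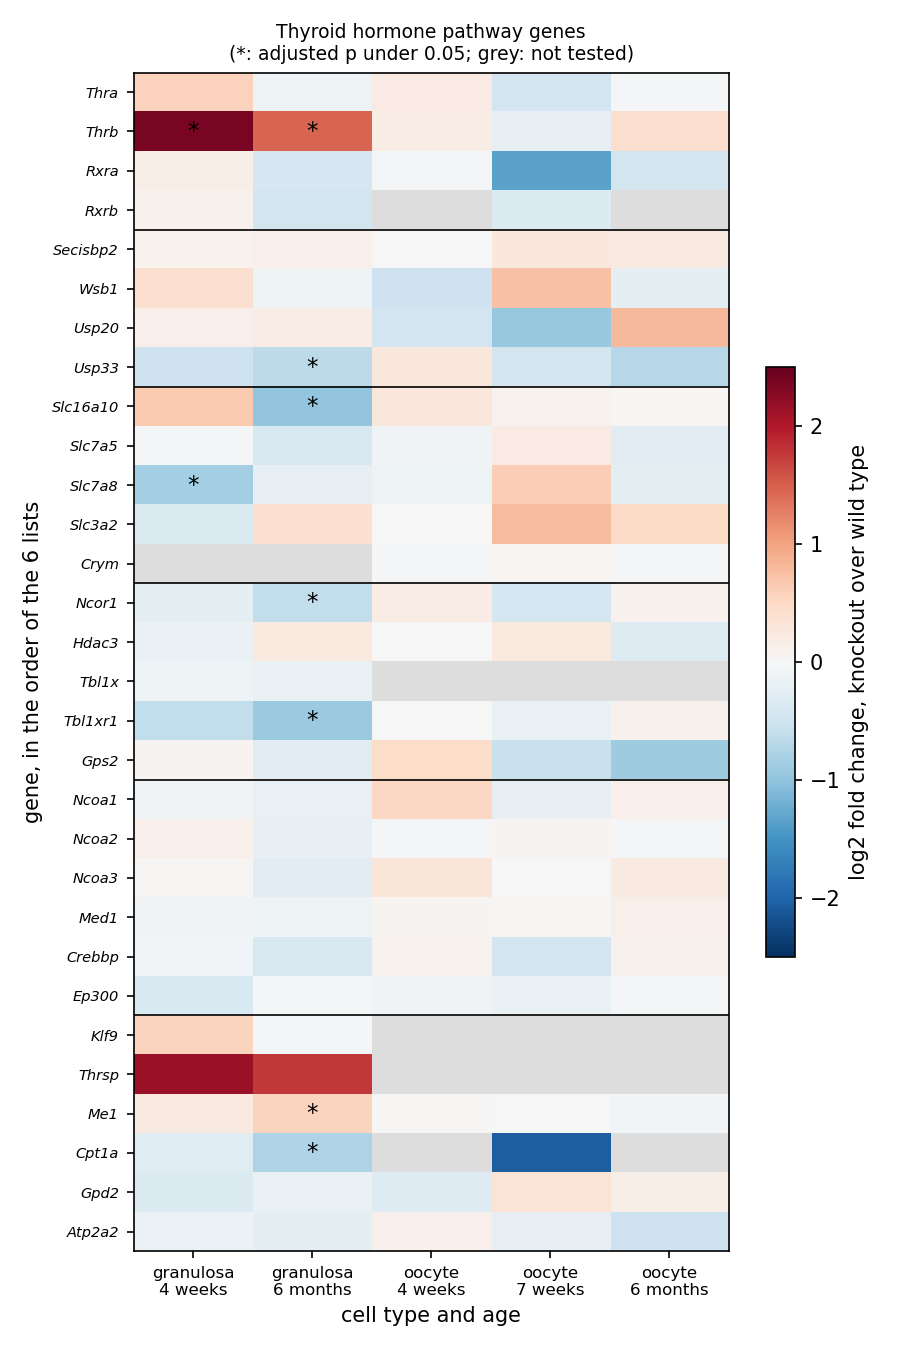
Fitted log2 fold change of knockout over wild type (colour) for the tested genes of the 6 lists (rows, in list order) in 5 comparisons (columns), with stars where the adjusted p was under 0.05 and grey where a gene was not tested. Thrb is starred at 4 weeks and 6 months in granulosa cells, and no gene is starred in oocytes.

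The age course of Slc16a10 differed between genotypes in granulosa cells. From 4 weeks to 6 months it fell by 1.77 in knockout cells (log2 -1.77 ± 0.29, SE; edgeR adjusted p = 3.74e-05) and changed by -0.12 ± 0.23 (SE) in wild type cells. The difference between the changes was -1.65 ± 0.37 (log2, SE; edgeR adjusted p = 0.0205), where 0.126% of genes were called lower. In libraries of 4 weeks its medians were 30.8 CPM in wild type and 55.1 CPM in knockout, and at 6 months they were 27.5 and 15.2 CPM. Slc16a10 was not called between genotypes at 4 weeks, and its call at 6 months was lost under the settings given above. The difference between the changes was rerun only under RLE factors and limma voom, with no library left out and no covariate.

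The genes whose pattern over the 6 granulosa groups lay nearest to that of Thrb were found among 10967 genes by the root mean square difference of mean-centred log2(mean CPM + 1). They were Bpifb4 (0.289), Ccn2 (0.299), Rnf182 (0.336), Dtna (0.341) and Pak3 (0.365). Bpifb4, Rnf182 and Dtna passed the filter of 5 CPM only through knockout groups, so the filter itself favours a pattern like that of Thrb. Bpifb4 had means of 1.51 CPM in wild type and 5.89 CPM in knockout cells at 4 weeks, and 0.230 and 1.61 CPM at 6 months. Rnf182 had 1.42 and 5.30 CPM at 4 weeks and 0.593 and 2.08 CPM at 6 months. Ccn2, connective tissue growth factor, had means of 7.34 CPM in wild type and 40.2 CPM in knockout granulosa cells at 4 weeks, and 4.64 and 18.2 CPM at 6 months. Dtna, alpha-dystrobrevin, had 4.90 and 32.9 CPM at 4 weeks and 1.90 and 11.8 CPM at 6 months. The groups include the libraries that chose Thrb, so this is a description of likeness with no test.

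**Figure D5:**
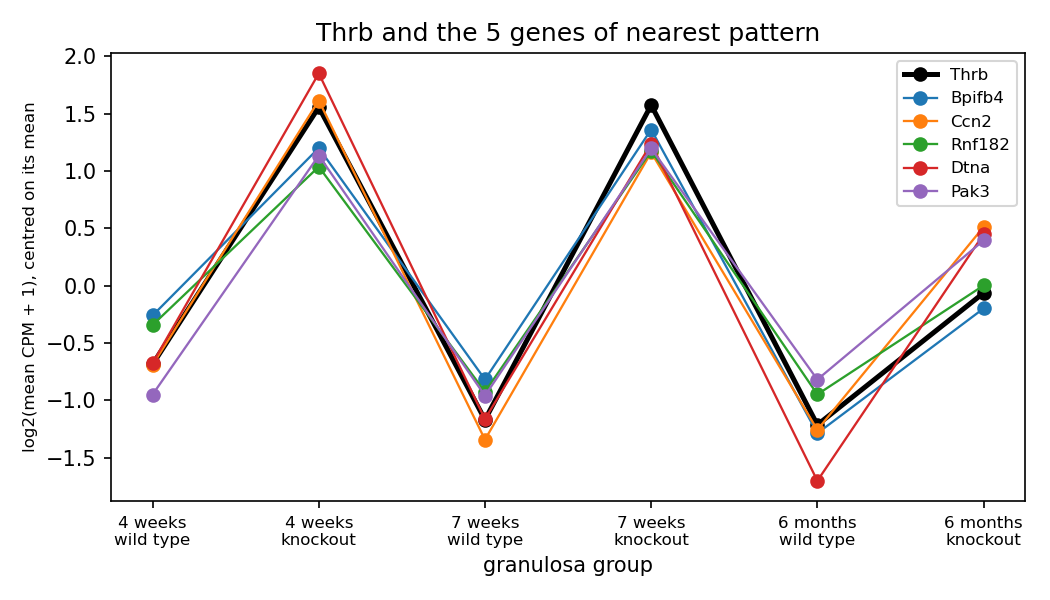
Mean-centred log2(mean CPM + 1) (vertical axis) of Thrb (black) and the 5 genes of nearest pattern over the 6 granulosa groups (horizontal axis). The root mean square differences from Thrb range from 0.289 to 0.365.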

How the data were processed

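RNA was measured by Smart-seq2 in 93 libraries. The deposited count tables, 1 for each cell type and age, hold expected counts made with STAR and Partek on mm10, per the submitters' processing notes; versions and annotation are not given in the sources used here, and 17.3% of values are not whole. The normalised tables were not used. Samples were grouped by title. One column of the 7 week knockout oocytes, whose name joins the numbers 4 and 5, was kept as a library without a number. No pair of libraries was identical.

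Within each age and cell type, rounded counts of the genes that filterByExpr kept, with TMM scaling factors, entered the quasi-likelihood test of edgeR 4.0.16 in R 4.3.3. Age contrasts used all groups of a cell type and cell type contrasts used all 12 groups; Benjamini-Hochberg adjustment covered every gene tested, with a threshold of 0.05. On simulated data the granulosa 4 week comparison recovered 93% of 4-fold and 16% of 2-fold changes. Dio2 failed the filter and was tested by exact permutation of log2(CPM + 1).

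The members and lists were chosen with earlier results of these data known. Some listed genes are not reported here. Beside the members, Esr2 and Nr1d1, the text names up to 4 listed genes per comparison past the test with the smallest p, Dio, Rxr and Klf9 levels, and the 5 genes nearest to Thrb in pattern that reached 5 CPM in a granulosa group. Same-numbered libraries were judged to be pairs only in 7 week oocytes (4 pairs, correlations of deviations 0.118 to 0.543). The main tests used no block there or elsewhere, so the 7 week oocyte tests above ignore the pairing. The block entered only as an alternative. Length tilt was computed per library over genes with a mean of at least 5 CPM; genes are not independent replicates. Alternatives were RLE factors, library totals, DESeq2 1.42.0, limma voom 3.58.1, other filters, a fit over 6 groups, a replicate block, leaving out each library, and, chosen after seeing the data, covariates for length tilt and marker sums and fits on fewer libraries.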

Additional observations from a re-analysis of the deposited data

Results flagged for a closer look

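In 35 sets of 1 gene and 1 group with 4 to 10 libraries, 3 held a library far from the others. Chance gives about 1 in 20 for normally distributed values, which CPM values need not be. That rate does not hold for Dio2, which had no count in 5 of 7 and 2 of 5 libraries of its 2 groups. Ncor1 read 213 CPM in knockout oocyte replicate 4 at 4 weeks, against a next value of 112 CPM. Dio2 read 1.91 CPM in knockout oocyte replicate 7 at 4 weeks, against a next value of 0.212 CPM, and 1.74 CPM in wild type oocyte replicate 2 at 7 weeks, against 0.439 CPM. The knockout effect on Slc16a10 in granulosa cells differed between 6 months and 4 weeks by -1.65 on the log2 scale (edgeR adjusted p = 0.0205), with -1.60 under RLE factors and -1.77 under limma voom.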

How the results depend on the processing

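An alternative value counted as unchanged if it kept its direction and its side of the threshold, including values that stayed short of it. In the 7 week granulosa libraries, which were not tested, it counted if the log2 shift was under the mean SD within groups. Over the members, 600 of 644 alternative values were unchanged by these rules. That count includes the 7 week granulosa libraries, which chose the set. Thrb in granulosa cells kept a positive sign in all alternatives at 4 weeks and 6 months. Leaving out 1 library gave 2.15 to 2.60 at 4 weeks and 1.28 to 1.77 at 6 months. At 7 weeks it gave 2.79 to 3.03. Those libraries were chosen for a rise of Thrb, so nothing is read from the sign there. Thrb missed the threshold at 4 weeks with immune markers (2.07). At 6 months Thrb missed it with the replicate block (1.43), with the shared-number libraries unblocked (1.21) and with oocyte markers (1.28). Ncor1 at 6 months missed it under limma voom (-0.58), the 6-group fit (-0.63), the replicate block (-0.60), length tilt (-0.19), oocyte (-0.67), immune (-0.62) and granulosa markers (-0.48), and ranged from -0.70 to -0.54 with 1 library left out; at 7 weeks it moved to 0.0021 with length tilt. The cause was not tested for any of these.

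Reversed values were all short of the threshold: Ncor1 in granulosa at 4 weeks with granulosa markers (0.45); Thra in granulosa at 6 months with length tilt (0.40) and granulosa markers (0.14); Thra in 4 week oocytes with length tilt (-0.062); Thra in 6 month oocytes under voom (0.18); Ncor1 in 6 month oocytes with length tilt (-0.042); and the Thrb oocyte difference of the knockout effect, 6 months against 4 weeks, under voom (-0.10). Nr1d1 reversed at 4 weeks in granulosa with immune (-0.057) and granulosa markers (-1.31), in 4 week oocytes with the replicate block (0.15) and unblocked (0.16), and in 7 week oocytes with totals (-0.084), block (-0.14) and unblocked (-0.15). With 1 library left out the oocyte ranges that crossed 0 were -0.35 to 0.090 for Thrb and -0.056 to 0.11 for Nr1d1 at 7 weeks, -0.021 to 0.28 for Ncor1 at 4 weeks, and -0.16 to 0.21 for Thra and -0.0027 to 0.24 for Ncor1 at 6 months; Dio2 ranged from -0.29 to 0.0083, -0.28 to 0.088 and -0.20 to 0.0014. Between ages and cell types, Ncor1 in knockout granulosa missed the threshold under voom (-0.67), Thrb in wild type missed it at 6 months under RLE (-0.56) and voom (-0.66), and passed at 4 weeks under voom (-0.90), while Thra (0.77) and Ncor1 (0.62) in knockout passed at 4 weeks under RLE.

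With the replicate block, in granulosa groups whose numbers were not taken as pairs, the listed genes Slc7a8 at 4 weeks (edgeR adjusted p = 0.116) and Cpt1a (0.0565), Tbl1xr1 (0.0563), Me1 (0.0611) and Slc16a10 (0.0911) at 6 months missed the threshold, and Nr1d1 at 6 months passed it (1.55, adjusted p = 0.0255).

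Counts of called genes moved most. In granulosa cells at 4 weeks 283 became 559 under DESeq2, 504 in the 6-group fit, 103 with immune and 741 with granulosa markers. At 7 weeks 96 became 563, 285, 42 without libraries under 1000000 counts, 0 with length tilt and 1006 with granulosa markers, with 36 to 209 on leaving out 1 library. At 6 months 1580 became 803 in the 6-group fit, 645 with the replicate block, 419 with length tilt, 450 with oocyte and 809 with granulosa markers, with 926 to 2057 on leaving out 1. In 7 week oocytes, whose numbers were judged to be pairs, the main fit still used no block. Its 18 calls became 38 with the replicate block. They became 1 in the same libraries unblocked, 30 with totals and 30 without a filter. DESeq2 gave 238, voom 1, the 6-group fit 3 and length tilt 32. Leaving out 1 library gave 2 to 296. No member was called there under the block. Depth limits Dio2, at 4 to 21 counts per group.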
